A study of Homo sapiens with 10 samples.

Results

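Homologous recombination copies lost sequence back into a broken chromosome from an intact sister, and the Fanconi pathway unhooks DNA crosslinks and hands the resulting break to the same machinery. Both routes work mainly in S and G2 phase, and their genes are commonly transcribed with those of the cell cycle. A list of 33 genes of these routes was examined, chosen by role and with earlier results of these data known. Counts of its members therefore describe the list and not an unbiased sample of the pathway. The list covers the BRCA1 partners, the strand exchange factors, and the resection and dissolution factors. It also covers the Fanconi core complex, its FANCI target with associated nucleases, and 3 mismatch and checkpoint genes. Of the 33 genes, 28 were measured, among 22432 named genes in all. BRCA2, RBBP8, FANCA and FANCD2 had no probe set assigned to that gene alone under the annotations used and were not analysed here. The probe set of RAD54B is annotated to a second gene as well, so RAD54B was not analysed here either.

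The cells were 786-O, a human clear-cell renal carcinoma line that lacks functional VHL, infected with lentivirus and selected with puromycin at 2 ug/ml in every group. One table of 6 arrays held scrambled control cells, cells with ZHX2 shRNA 44 and cells with ZHX2 shRNA 45. Another table of 4 arrays held Ctrl shRNA and p65 shRNA cells, p65 being the NF-kB subunit encoded by RELA, and ZHX2 being a zinc finger and homeobox protein that binds DNA. Each of the 5 groups had 2 arrays. The labels do not say whether these were separate cultures, so every p-value measures only the spread between the arrays, which may be technical. They also do not say how the Ctrl shRNA relates to the scrambled control. All values are log2 RMA signals, in which a difference of 1 is a doubling, and levels were compared neither between tables nor between genes. Replicate arrays of a group correlated at 0.985 to 0.995 over all genes, and the SD of the difference between replicates over the 28 genes was 0.0994 to 0.134 in the ZHX2 table and 0.293 to 0.336 in the p65 table.

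The targeted genes were lower in the arrays named for them. ZHX2 was at 10.58 and 10.43 in scrambled control cells, at 9.35 and 9.38 under hairpin 44, and at 8.93 and 9.02 under hairpin 45, so both hairpin groups lay below both controls. RELA was at 7.64 and 7.67 with control shRNA and at 5.04 and 5.28 with p65 shRNA, a difference of -2.50 (SE 0.178). That difference did not pass limma in the p65 table, where the adjusted p was 0.0733, and it passed at 0.00132 when the variance moderation followed an intensity trend. RELA itself rose in the ZHX2 table by 0.44 (limma adjusted p = 0.0112), from 9.34 and 9.23 to 9.64, 9.68, 9.82 and 9.75. In bulk RNA of this kind, a change in the share of cells that express a gene cannot be told apart from a change in RNA per cell.

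Because most of the genes differed in 1 direction within each table, their promoters are shown before the values. RefSeq (GRCh38.p14) gave a promoter for 30 of the 33 genes, and the first listed start was used where a gene has several. Sequences were searched on both strands for letters of motifs that recur in cell cycle promoters and for the NF-kB consensus GGGRNWYYCC. There R is A or G, N is any base, W is A or T, and Y is C or T. A match describes only the letters. An E2F motif (TTTCCCGC, TTTGGCGC, TTTCGCGC or TTTGCCGC) lay between 250 bases before and 50 bases after the start in 6 of 30 promoters (20%), which were those of EXO1, FANCA, FANCC, FANCD2, MSH6 and XRCC2, and in 3.33% of 27305 promoters. That share depends on the window, since in the 250 bases before the start alone the motif lay in 2 of 30 (6.67%) and 2.79% of all, and in 0 of the 17 promoters of genes that rose after ZHX2 knockdown. In the wider window a CCAAT box lay in 15 of 30 (50%) and 35.7% of all. A CHR motif, TTTGAA, lay in 3 of 30 (10%) and 15.4% of all, and the NF-kB consensus in 1 of 30 (3.33%), EME1, and 5.72% of all. The CHR and CCAAT motifs did not overlap each other in the promoters printed here. The following 30-base windows hold the E2F motif in capitals for measured genes, at EXO1 (chr1:241848197-241848226, plus strand), XRCC2 (chr7:152676102-152676131, minus strand), MSH6 (chr2:47783137-47783166, plus strand) and FANCC, which has a pair of sites (chr9:95317863-95317892 and chr9:95317737-95317766, minus strand).
EXO1: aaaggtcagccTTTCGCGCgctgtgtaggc
XRCC2: tggcgttggtgGCGGGAAAgttgagtctct
MSH6: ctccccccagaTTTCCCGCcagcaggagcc
FANCC, farther site: ccggggcttccGCGCGAAAccgggaacact
FANCC, nearer site: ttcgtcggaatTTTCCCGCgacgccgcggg
In the values given next, EXO1 and XRCC2 passed after ZHX2 knockdown, MSH6 passed there near the threshold, and FANCC did not pass. None of these 4 genes passed in the p65 table, although all 4 were lower there (EXO1 -1.49, XRCC2 -1.31, MSH6 -0.30 and FANCC -0.22). EXO1 and XRCC2 passed there when the variance moderation followed the intensity trend.

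The 250 bases before the start are printed for BRIP1 and UBE2T, which were among the 3 genes with the smallest p in the p65 table and carry both other motifs, and for XRCC3, which has 5 CCAAT boxes and differed little in that table. Capitals mark CCAAT or its reverse complement ATTGG, and TTTGAA or its reverse complement TTCAAA. They lie at chr17:61863529-61863778 (BRIP1), chr1:202341937-202342186 (UBE2T) and chr14:103715452-103715701 (XRCC3), all on the minus strand.
BRIP1: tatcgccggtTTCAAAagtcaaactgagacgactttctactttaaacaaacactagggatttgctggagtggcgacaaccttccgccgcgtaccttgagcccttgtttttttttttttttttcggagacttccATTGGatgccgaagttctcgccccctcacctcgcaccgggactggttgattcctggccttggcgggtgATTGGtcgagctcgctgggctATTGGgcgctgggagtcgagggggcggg
UBE2T: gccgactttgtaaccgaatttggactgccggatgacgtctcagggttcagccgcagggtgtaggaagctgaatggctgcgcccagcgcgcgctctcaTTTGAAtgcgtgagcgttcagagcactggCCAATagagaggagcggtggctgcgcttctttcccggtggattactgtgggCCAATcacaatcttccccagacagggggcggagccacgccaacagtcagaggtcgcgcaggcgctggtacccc
XRCC3: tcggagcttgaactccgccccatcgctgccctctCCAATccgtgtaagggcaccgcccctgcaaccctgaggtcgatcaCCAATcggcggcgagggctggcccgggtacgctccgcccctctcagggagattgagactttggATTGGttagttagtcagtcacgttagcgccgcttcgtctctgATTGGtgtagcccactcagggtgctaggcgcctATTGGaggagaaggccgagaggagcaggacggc
The BRIP1 promoter held 3 CCAAT boxes and 1 CHR, and the UBE2T promoter held 2 and 1. The XRCC3 promoter held 5 CCAAT boxes and no CHR. EXO1, the other of those 3 genes, held neither motif in these 250 bases. Nor did XRCC2, FANCB, BARD1 and BRCA1, which were also lower with p65 shRNA, whereas FANCC held a CHR and differed by -0.22. A link between motifs and differences was not tested.

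After ZHX2 knockdown the recombination and Fanconi genes were higher as a group. Against scrambled, in the mean of both hairpins, 18 of the 28 rose and 0 fell in limma at an adjusted p under 0.05, where 11.9% of all 22432 genes rose and 6.41% fell. The size was small, with a median difference of 0.35 (1.28-fold), a range of -0.01 to 0.81, and an all-gene median of 0.00. Values of all 4 knockdown arrays lay above both scrambled arrays for 25 of the 28 (21.9% of all genes), the exceptions being RMI2, FANCL and CHEK2. With each array left out in turn, fewer members passed, and fewer of all genes passed as well. The member median in those fits was 0.29 to 0.37. EXO1, RMI1, FANCB, FANCE and UBE2T passed in each of those fits and in the other alternative settings run. A minimum of 1.5-fold left those 5 genes as calls, where 599 of all 22432 genes were called higher. The other 13 lost their call without at least 1 array, at limma adjusted p-values up to 0.202 (FANCM). FANCI and RAD54L lost it only without scrambled replicate 2, BRIP1 and BLM without 3 of the 6 arrays, BARD1 without 4, RAD51AP1, RAD51C, FAN1 and CHEK1 without 5, and XRCC2, FANCG, FANCM and MSH6 without any one of the 6.

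**Figure D1:**
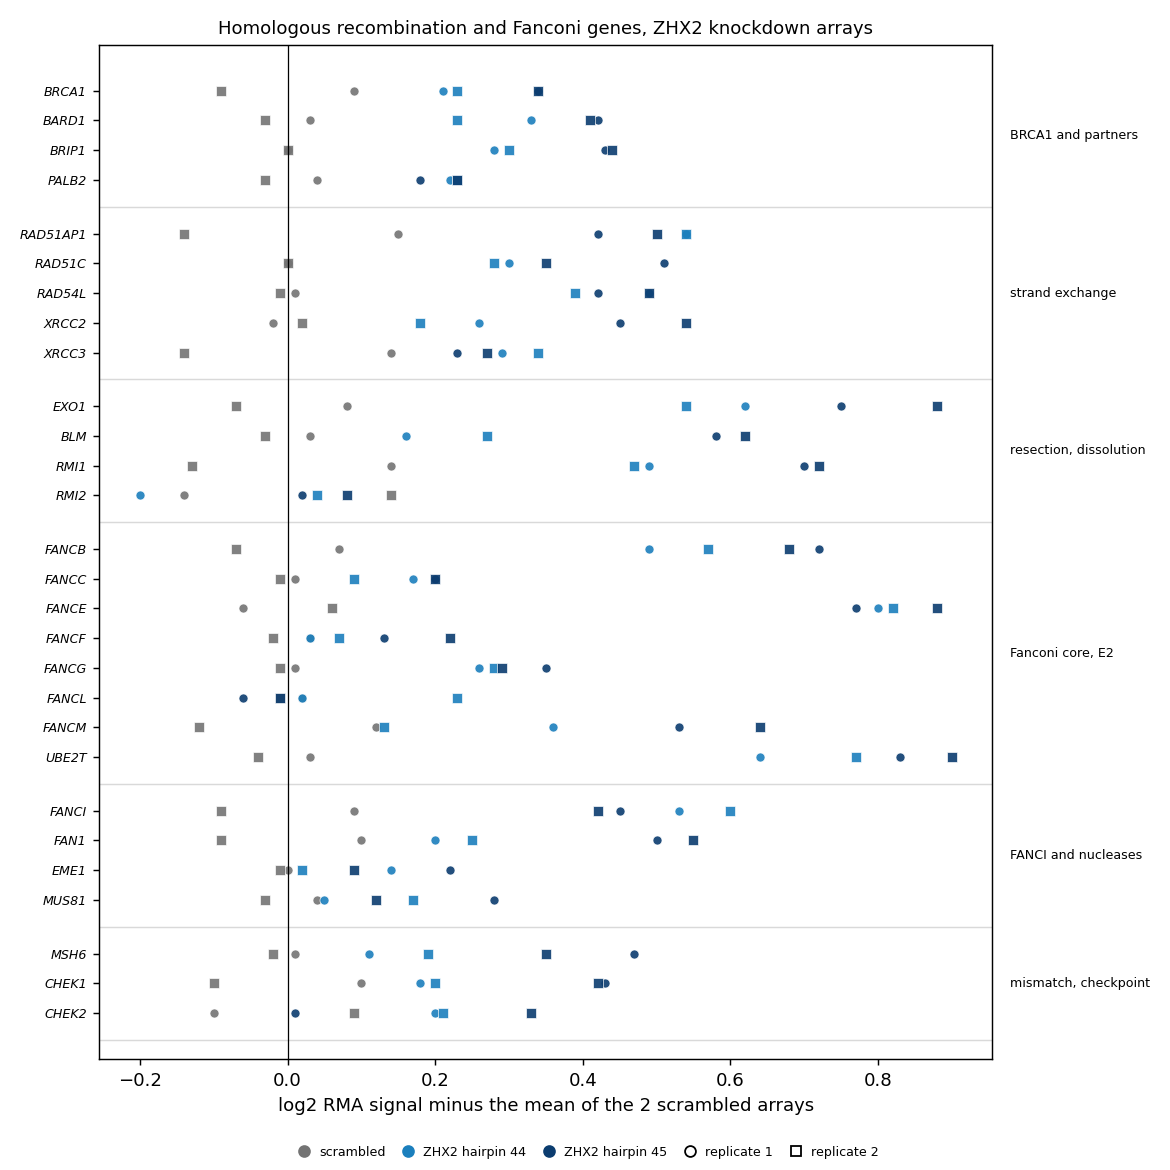
Each point is 1 array, plotted as its log2 signal minus the mean of the 2 scrambled arrays for each of the 28 genes (rows, by role), with circles for replicate 1 and squares for replicate 2. The hairpin arrays sit right of the scrambled arrays for 25 genes, with FANCE, UBE2T, EXO1, FANCB and RMI1 farthest out.

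Among the BRCA1 partners, 2 of 4 rose, with a median difference of 0.32. BRIP1, a helicase that binds BRCA1, was at 9.50 and 9.50 in scrambled cells, at 9.78 and 9.80 under hairpin 44, and at 9.93 and 9.94 under hairpin 45. It rose by 0.37 (SE 0.0601, limma adjusted p = 0.0125), with no overlap between groups. BARD1, the obligate partner of BRCA1 in its ubiquitin ligase, was at 8.27 and 8.21, then 8.57 and 8.47, then 8.66 and 8.65. Its rise was 0.35 (SE 0.0664, limma adjusted p = 0.0185). BRCA1 was at 8.36 and 8.18 in scrambled cells, at 8.48 and 8.50 under hairpin 44, and at 8.61 and 8.61 under hairpin 45. The difference of 0.28 did not pass (SE 0.0747, limma adjusted p = 0.0527), although the arrays did not overlap, and it passed with the intensity trend (0.0089). PALB2, which bridges BRCA1 and BRCA2, was at 8.91 and 8.84 against 9.09, 9.10, 9.05 and 9.10, a difference of 0.21 (SE 0.0633) that did not pass (limma adjusted p = 0.0709), and passed with the intensity trend (0.012).

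Of the 5 strand exchange factors, 4 rose (median 0.36). RAD54L, a motor protein of strand pairing, was at 8.87 and 8.85 in scrambled cells, at 9.35 and 9.25 under hairpin 44, and at 9.28 and 9.35 under hairpin 45. It rose by 0.45 (SE 0.0676, limma adjusted p = 0.0101), at much the same size with either hairpin (0.44 and 0.45). XRCC2, a strand exchange cofactor, was at 9.56 and 9.60, then 9.84 and 9.76, then 10.03 and 10.12, and rose by 0.36 (SE 0.0681, limma adjusted p = 0.0193). Its hairpin 45 arrays were above its hairpin 44 arrays, and both were above the controls. RAD51AP1, which aids strand invasion, rose by 0.50, and RAD51C by 0.36. XRCC3, which also acts in strand exchange, was at 6.83 and 6.55 against 6.98, 7.03, 6.92 and 6.96, and its difference of 0.28 (SE 0.0945) did not pass (limma adjusted p = 0.0969). Its scrambled arrays lay apart. The difference was 0.43 without scrambled replicate 1 (limma adjusted p = 0.0333) and 0.14 without scrambled replicate 2 (limma adjusted p = 0.298).

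In resection and dissolution, 3 of 4 genes rose (median 0.50). EXO1, the exonuclease that lengthens resected ends, was at 8.04 and 7.89 in scrambled cells, at 8.58 and 8.50 under hairpin 44, and at 8.71 and 8.84 under hairpin 45. It rose by 0.69, or 1.62-fold (SE 0.0795, limma adjusted p = 0.00484). RMI1, a scaffold of the complex of BLM and TOP3A that dissolves joined DNA molecules, was at 9.03 and 8.76, then 9.38 and 9.36, then 9.59 and 9.61. Its rise was 0.59, or 1.51-fold (SE 0.091, limma adjusted p = 0.0103). BLM, the helicase of that complex, rose by 0.40 (SE 0.0682, limma adjusted p = 0.0134). RMI2, the small partner of RMI1, did not pass. It was at 7.73 and 8.01 in scrambled cells, at 7.67 and 7.91 under hairpin 44, and at 7.89 and 7.95 under hairpin 45, so the groups overlapped, and its difference was -0.01 (SE 0.113, limma adjusted p = 0.948).

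The Fanconi core complex and its E2 enzyme held the largest difference of the list, and 5 of the 8 measured members rose (median 0.36). FANCE, which joins the core to the FANCI and FANCD2 substrate, was at 7.32 and 7.44 in scrambled cells, at 8.18 and 8.20 under hairpin 44, and at 8.15 and 8.26 under hairpin 45. It rose by 0.81, or 1.76-fold (SE 0.0732, limma adjusted p = 0.00273), and the hairpins gave 0.81 and 0.82. UBE2T, the E2 enzyme that supplies ubiquitin to the core ligase, was at 9.33 and 9.26, then 9.94 and 10.07, then 10.13 and 10.20. That was a rise of 0.79, or 1.73-fold (SE 0.0728, limma adjusted p = 0.00285). FANCB rose by 0.62 (1.54-fold), FANCM, the translocase that finds stalled forks, by 0.42, and FANCG by 0.30. FANCM and FANCG did not pass when any one of the 6 arrays was left out.

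Other core members did not pass. FANCL, the ligase subunit that works with UBE2T, was at 8.30 and 8.27 in scrambled cells against 8.30, 8.51, 8.22 and 8.27, so the groups overlapped (difference 0.04, SE 0.082, limma adjusted p = 0.772). FANCF was at 7.40 and 7.35 against 7.40, 7.44, 7.50 and 7.59, with no clear gap (difference 0.11, SE 0.0662, limma adjusted p = 0.314). FANCC was at 8.59 and 8.57 against 8.75, 8.67, 8.78 and 8.78 (difference 0.17, SE 0.0634, limma adjusted p = 0.135). Thus the E2 enzyme and FANCE differed by 0.79 and 0.81 and the ligase subunit by 0.04, though these genes were not tested against each other.

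Downstream of the core, 2 of 4 genes rose (median 0.26). FANCI, which is ubiquitinated together with FANCD2, was at 9.36 and 9.18 in scrambled cells, at 9.80 and 9.87 under hairpin 44, and at 9.72 and 9.69 under hairpin 45, a rise of 0.50 (SE 0.0785, limma adjusted p = 0.011). FAN1, a nuclease recruited by the ubiquitinated pair, was at 7.74 and 7.55, then 7.84 and 7.89, then 8.14 and 8.19, a rise of 0.37 (SE 0.0788, limma adjusted p = 0.0261). Neither gene overlapped its controls. MUS81 and EME1, the subunits of a structure-specific endonuclease, differed by less. MUS81 was at 8.88 and 8.81 against 8.89, 9.01, 9.12 and 8.96 (difference 0.15, SE 0.0791, limma adjusted p = 0.258). EME1 was at 8.01 and 8.0 against 8.15, 8.03, 8.23 and 8.10 (difference 0.12, SE 0.0736, limma adjusted p = 0.32).

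The mismatch and checkpoint genes held 2 rises of 3, both near the threshold. MSH6, a mismatch recognition subunit, was at 9.43 and 9.40 in scrambled cells, at 9.53 and 9.61 under hairpin 44, and at 9.89 and 9.77 under hairpin 45 (difference 0.28, SE 0.0713, limma adjusted p = 0.0451). CHEK1, the checkpoint kinase below ATR, was at 8.72 and 8.52, then 8.80 and 8.82, then 9.05 and 9.04 (difference 0.31, SE 0.078, limma adjusted p = 0.046). Hairpin 45 gave the higher values in both genes. CHEK2, the kinase below ATM, was at 6.71 and 6.90 against 7.01, 7.02, 6.82 and 7.14 (difference 0.19, SE 0.111, limma adjusted p = 0.302). A dimmer CHEK2 probe set gave -0.15, so the direction of CHEK2 depended on the probe set. MSH6 was not called without scrambled replicate 2 (0.27, limma adjusted p = 0.148), and neither was CHEK1 (0.21, 0.15).

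The hairpins were each set against the same scrambled arrays, so their results are not independent. With hairpin 44, 7 of 28 genes rose and 0 fell, where 4.81% of all genes rose and 2.84% fell, and the median difference was 0.24. With hairpin 45, 19 rose and 0 fell, where 13% of all genes rose and 7.11% fell, and the median was 0.43. The genes that passed with hairpin 44 passed with hairpin 45 too, and were RAD51AP1, RAD54L, EXO1, FANCB, FANCE, UBE2T and FANCI. The hairpin 44 count was 2 with a replicate block, where 467 of all genes rose, and 13 with the intensity trend (11.7% of all genes). Leaving out any one array left fewer calls with either hairpin, both among the members and over all genes. The calls therefore depended on single arrays. The median differences in those fits were 0.21 to 0.29 with hairpin 44 and 0.37 to 0.44 with hairpin 45.

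Hairpin 45 gave the higher mean in 22 of the 28 genes, with a median difference between hairpins of 0.13. ZHX2 itself differed by -0.39 between the hairpins, which did not pass (limma adjusted p = 0.152) and passed with the intensity trend (0.00515). In limma 0 members passed between the hairpins, where 0.397% of all genes did. At an unadjusted p under 0.05 there were 7 members, all higher with hairpin 45 (8.35% of all genes). With the intensity trend 3 passed, all higher with hairpin 45 (4.11% of all genes). These were BLM (0.38, adjusted p = 0.0135), XRCC2 (0.27, 0.0176) and MSH6 (0.26, 0.0324) by limma. BLM was at 8.14 and 8.25 under hairpin 44 and at 8.56 and 8.60 under hairpin 45, and its scrambled arrays were at 8.01 and 7.95.

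In the p65 table most of the same genes were lower. The signal was below control in 25 of 28 genes, with a median difference of -0.92 (1.89-fold lower), a range of -1.49 to 0.70, and an all-gene median of 0.01. In limma 0 members passed, where 0% of all 22432 genes did. At an unadjusted p under 0.05, 18 members were lower (7.95% of all genes) and 1 was higher (6.39% of all genes). Both p65 arrays lay below both control arrays for 21 members (22.7% of all genes) and above them for 1, FANCF (23.4%). With the intensity trend 10 members were lower and 0 higher at an adjusted p under 0.05, where 2.49% of all genes were lower and 1.37% higher. Those 10 were BRCA1, BARD1, BRIP1, XRCC2, EXO1, FANCB, UBE2T, FANCI, EME1 and CHEK1. Leaving out any one array of the table left 0 calls in limma and medians of -1.03 to -0.77.

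**Figure D2:**
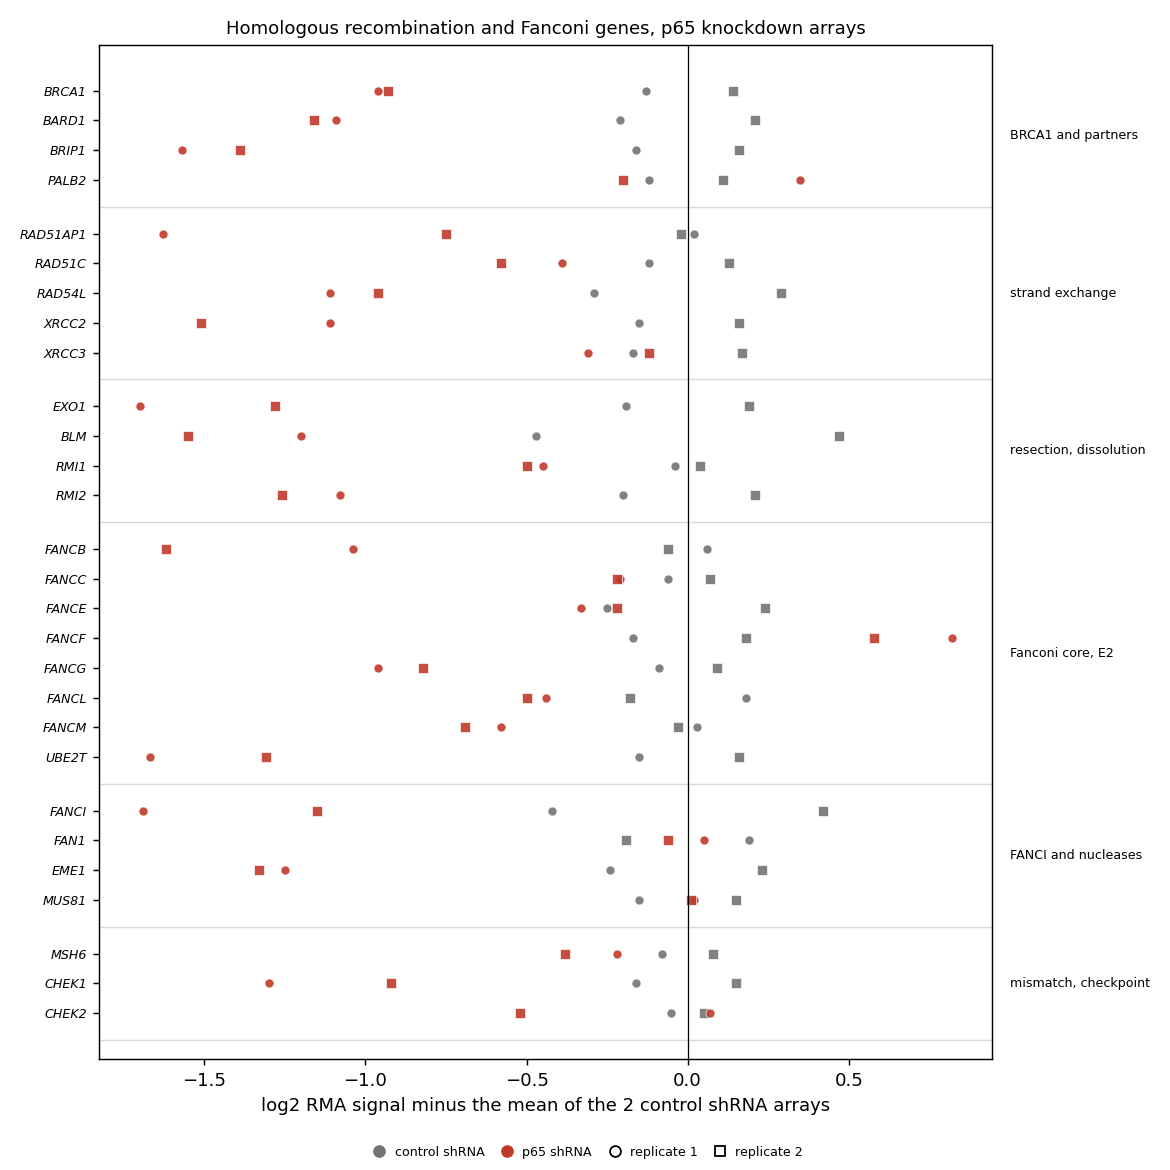
Each point is 1 array of the p65 table, plotted as its log2 signal minus the mean of the 2 control shRNA arrays for each of the 28 genes (rows, by role), with circles for replicate 1 and squares for replicate 2. The p65 arrays sit left of the controls for 21 genes, FANCF is the gene on the right, and the control arrays themselves spread widely for BLM and FANCI.

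The 3 genes with the smallest p were BRIP1, UBE2T and EXO1. BRIP1 was at 6.61 and 6.93 in control cells and at 5.20 and 5.38 with p65 shRNA, a difference of -1.48 (SE 0.198, limma adjusted p = 0.091, with trend 0.00513). UBE2T was at 7.65 and 7.96 against 6.13 and 6.49, a difference of -1.49 (SE 0.217, limma adjusted p = 0.0948, with trend 0.00469). EXO1 was at 6.54 and 6.92 against 5.03 and 5.45, a difference of -1.49 (SE 0.236, limma adjusted p = 0.1, with trend 0.00907). In each gene the gap between the groups was larger than the spread within either, and the fold was 2.79, 2.82 and 2.81.

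By role, the BRCA1 partners had a median of -1.04, strand exchange -1.03, resection and dissolution -1.27, the core and its E2 enzyme -0.56, FANCI with the nucleases -0.65, and the mismatch and checkpoint genes -0.30. BRCA1 was at 5.45 and 5.72 in control cells and 4.62 and 4.65 with p65 shRNA (difference -0.95, SE 0.183, limma adjusted p = 0.13, with trend 0.0366). XRCC2 was at 4.54 and 4.85 against 3.58 and 3.18 (difference -1.31, SE 0.224, limma adjusted p = 0.113, with trend 0.0365). FANCI was at 6.09 and 6.93 against 4.82 and 5.36 (difference -1.42, SE 0.344, limma adjusted p = 0.183, with trend 0.0408). All 3 were separated between groups, although the FANCI control arrays lay far apart. BLM showed the widest spread between control arrays, at 4.98 and 5.92 against 4.25 and 3.90, and its difference of -1.38 (SE 0.346) passed neither fit.

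A few members departed from the pattern. FANCF, an adaptor of the core complex, was at 4.51 and 4.86 in control cells and 5.50 and 5.26 with p65 shRNA, a difference of 0.70 (SE 0.207, limma adjusted p = 0.243, with trend 0.131), which passed neither test. PALB2 was at 6.28 and 6.51 against 6.75 and 6.20, MUS81 at 4.48 and 4.78 against 4.65 and 4.64, and FAN1 at 4.88 and 4.50 against 4.74 and 4.63. Groups overlapped in those 3 genes, with differences of 0.08, 0.01 and -0.01. They also overlapped in XRCC3 and CHEK2, with a difference of -0.22 in each. FANCE, which had the largest rise after ZHX2 knockdown, was at 2.22 and 2.71 against 2.14 and 2.25, with overlapping groups (difference -0.27, SE 0.224, limma adjusted p = 0.638). The array medians over all probe sets were 1.87 to 1.89 in that table, and whether the FANCE signal had room to fall was not tested. EME1 was at 4.67 and 5.14 against 3.66 and 3.58 (difference -1.29, SE 0.217), yet its dimmer probe set gave 0.01, so the value rests on 1 probe set. RMI2, with a difference of -0.01 after ZHX2 knockdown, was at 3.62 and 4.03 against 2.74 and 2.56, a difference of -1.17 (SE 0.212, limma adjusted p = 0.12).

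Side by side, 24 of the 28 members (85.7%) were higher in the mean of both ZHX2 hairpins and lower with p65 shRNA, as were 24.9% of all genes and 24 of 25 G1/S and replication genes (96%). The 8 genes that passed upward in the ZHX2 table and, with the intensity trend, downward in the p65 table were BARD1, BRIP1, XRCC2, EXO1, FANCB, UBE2T, FANCI and CHEK1, and 265 of all genes (1.18%) and 22 of the 25 G1/S and replication genes did so. The correlation between the differences was -0.382 (Pearson) and -0.495 (Spearman) across the 28 members, which share the arrays of each table and are no independent replicates. In the same order it was -0.489 and -0.368 across the 25 G1/S and replication genes, and -0.0655 and -0.0493 across all genes. The tables have separate control arrays. FANCE, RMI1 and FAN1 were higher after ZHX2 knockdown with differences of -0.27, -0.47 and -0.01 in the p65 table, where the FANCE signal was 2.14 to 2.71. RMI2 and EME1 differed by -0.01 and 0.12 after ZHX2 knockdown and by -1.17 and -1.29 with p65 shRNA.

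**Figure D3:**
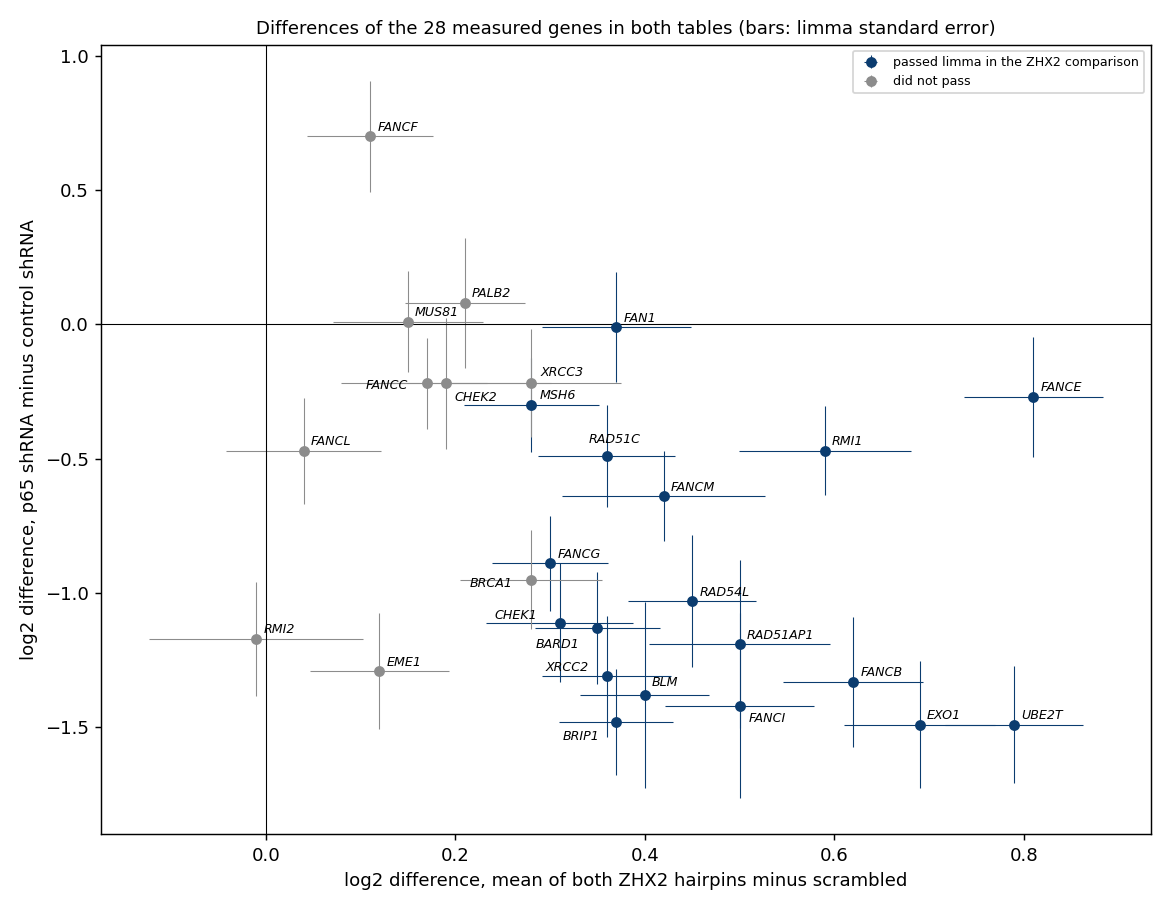
Each point is 1 of the 28 genes, with the log2 difference of both ZHX2 hairpins from scrambled on the horizontal axis and that of p65 shRNA from control shRNA on the vertical axis, and bars giving the limma standard error. Of the 28 genes, 24 lie right of 0 and below 0, and FANCE and FANCF stand away from the lower group.

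Other genes of the pathway had a smaller median. That list, like the members, was chosen with earlier results of these data known. The shares therefore describe the lists and test no difference between them. Of 40 other measured recombination and Fanconi genes, 15 rose and 0 fell after ZHX2 knockdown (37.5%, median 0.20), beside 64.3% of the 28 members and 11.9% of all genes. The 2 with the smallest p were RFWD3, a ubiquitin ligase of crosslink repair, which rose by 0.69 (SE 0.0678, limma adjusted p = 0.00335), and TOP3A, the topoisomerase partner of RMI1 and BLM, which rose by 0.52 (SE 0.0637, limma adjusted p = 0.00569). Checkpoint signalling genes rose in 9 of 13 (median 0.34), end joining genes in 7 of 17 with 1 lower (median 0.24), and nucleotide excision genes in 2 of 10 with 1 lower (median 0.19). Among mismatch repair genes beside MSH6, 1 of 4 rose, PMS1. In the p65 table the other 40 pathway genes had a median of -0.21, checkpoint genes -0.61, end joining genes -0.22 and nucleotide excision genes 0.05. With the intensity trend, 4, 5, 4 and 0 of them were lower there, and 1 of the 40 pathway genes was higher.

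Cell cycle genes differed in the same direction as the members. Of 25 G1/S and replication genes, 25 rose after ZHX2 knockdown (median 0.59), led by MCM10, a replication initiation factor (0.94), and PRIM1, a primase subunit (0.70). Of 19 mitosis genes, 15 rose (median 0.36), among them CDC20 (0.54) and PLK1 (0.48). In the p65 table the medians were -1.23 and -1.70, and 22 of 25 and 18 of 19 were lower with the intensity trend. On single arrays the member median lay at 0.26 and 0.24 with hairpin 44, 0.43 and 0.41 with hairpin 45, and -0.96 and -0.78 with p65 shRNA. The G1/S median on the same arrays was 0.50 and 0.50, 0.57 and 0.56, and -1.34 and -1.12. Control arrays also differed from each other. The control shRNA arrays lay at -0.15 and 0.15 for members, -0.20 and 0.20 for G1/S genes and -0.18 and 0.18 for mitosis genes. The scrambled arrays lay at 0.03 and -0.03 for members. The part of the cell cycle genes in the members' differences was not tested. Of 19 genes of an E2F and DREAM list, 11 rose and 1 fell after ZHX2 knockdown (median 0.37, range -0.34 to 0.75), with E2F1 the highest. Their median in the p65 table was -0.27, with 4 lower by the intensity trend and 5 of the 19 above control. Of 14 p53 target genes 2 rose and 5 fell after ZHX2 knockdown (median -0.21), whereas their median in the p65 table was 0.62 with 5 higher by the intensity trend.

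**Figure D4:**
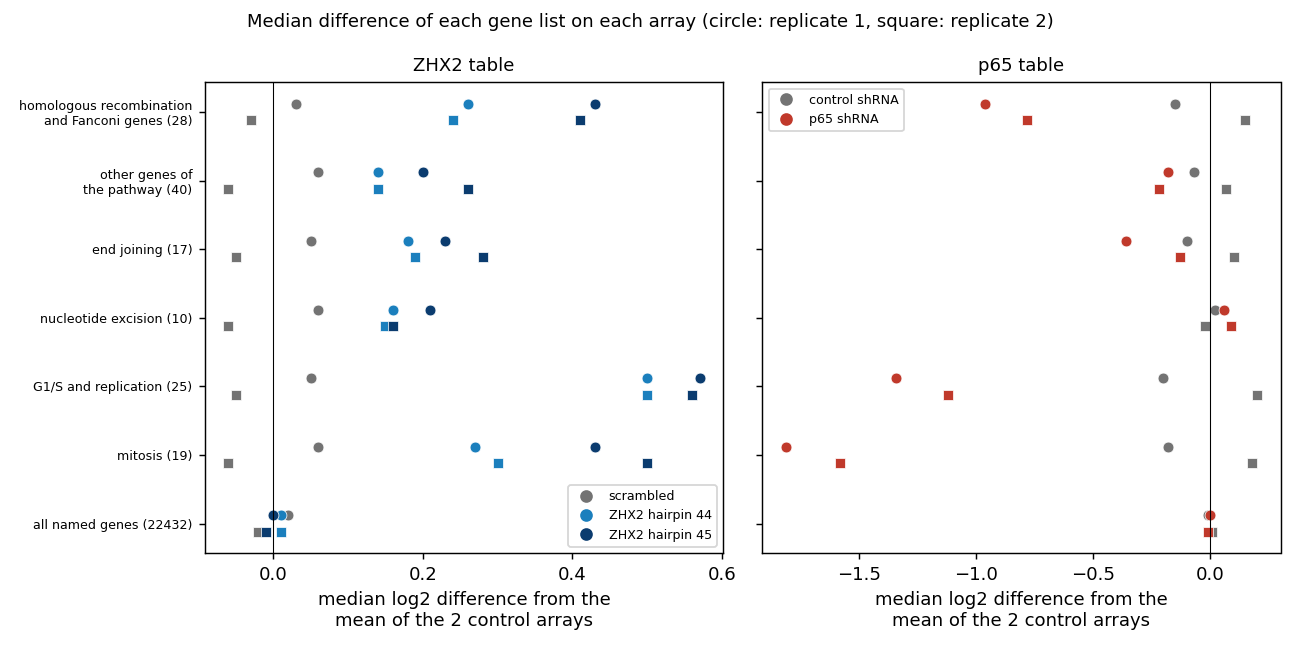
Each point is the median, over the genes of a list (rows, number of genes in brackets), of the log2 difference of 1 array from the mean of its 2 control arrays, for the ZHX2 table (left) and the p65 table (right). The recombination and Fanconi genes lie between the other repair lists and the G1/S genes on both sides, while all genes stay within 0.02 of 0.

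Marker genes of renal and other cell types were also examined. Levels were not compared between genes and only that of PAX8 is given, so this does not check the identity of the cells. PAX8, a transcription factor of kidney epithelium, averaged 12.33 on the scrambled arrays. Of 6 measured renal markers 4 fell and 1 rose after ZHX2 knockdown, CDH6 by the most (-1.92). Of 4 markers each for leukocytes, endothelium and fibroblasts, 1, 0 and 1 fell and 0 rose, and 0 passed in the p65 table with or without the trend.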

How the data were processed

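The deposited tables hold log2 RMA signals of 53617 probe sets per array, which per the submitters' processing notes the authors made with RMA; the sources used here do not give its software, version or annotation. The tables were treated as normalized separately. Probe sets were named from both platform annotations with symbols updated through RefSeq, which gave 22432 genes; the brightest probe set stood for a gene. No filter on low signal was applied. Group means were fitted with limma 3.58.1 (R 4.3.3, lmFit and eBayes, no trend), on 6 ZHX2 arrays (3 residual degrees of freedom) and separately on 4 p65 arrays (2). Calls are at a Benjamini-Hochberg adjusted p under 0.05 over all genes, and errors are moderated standard errors. Per-array values are given for the 2 members of each role with the smallest p in the mean of both hairpins, every member not called there, and the 3 with the smallest p in the p65 table; a few others were named after their values were seen. From other lists, the 2 genes with the smallest p could be named. Members and lists were chosen with earlier results of these data known. The script was tested on simulated data. Deviations of same-numbered replicates from the group means correlated at -0.03 to 0.05, so same-numbered arrays showed no shared shift. That cannot tell whether they were handled together. The number of arrays limits the precision. Alternatives were an intensity trend, quantile normalization, median centring, removal of dim probe sets (below the 40th percentile), the mean of probe sets, a replicate block, a 1.5-fold minimum, a fit restricted to the compared groups, and leaving out each array in turn.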

Additional observations from a re-analysis of the deposited data

How the results depend on the processing

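No called value of a member reversed under the alternatives run. In the mean of both hairpins the members called (18) were 5 with a 1.5-fold minimum and 5 to 15 with 1 array left out, and the median (0.35) was 0.27 with quantile normalization, 0.40 with median centring and 0.29 to 0.37 with 1 array left out. With hairpin 44 the count (7) was 13 with the intensity trend, 12 without dim probe sets, 2 with a replicate block, 2 with a 1.5-fold minimum, 2 with only the groups compared and 0 to 5 with 1 array left out, and the median (0.24) was 0.27 with median centring and 0.21 to 0.29 with 1 array left out. With hairpin 45 the count (19) was 7 with a 1.5-fold minimum and 4 to 17 with 1 array left out, and the median (0.43) was 0.31 with quantile normalization, 0.48 with median centring and 0.37 to 0.44 with 1 array left out. Between hairpins the count (0) was 3 with the intensity trend, and the median (0.13) was 0.10 with quantile normalization and 0.11 to 0.14 with 1 array left out. In the p65 table the count (0) was 10 with the intensity trend. The replicate block gave 15, 2, 16, 0 and 0 calls in the mean of both hairpins, hairpin 44, hairpin 45, hairpin 45 against 44 and p65 comparisons. Same-numbered arrays showed no shared shift. Of all genes called in the mean of both hairpins, 64.9% were higher, 53.2% with quantile normalization and 73% with median centring, while 14 and 19 members were called there, all higher. Where an array was left out, its group's remaining array was assumed to vary like the other groups. The cause of these shifts was not tested, except that fewer arrays leave fewer residual degrees of freedom. A separate fit of only the groups compared does not exist for the mean of both hairpins. Levels on arrays carry no detection limit here, and 2 arrays per group limit every estimate.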
